A study of Mus musculus with 24 samples.

Results

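The neuregulin ligand genes *Nrg1*, *Nrg2* and *Nrg3* and the ErbB receptor genes *Erbb2*, *Erbb3* and *Erbb4* were followed in AHF (anterior heart field) tissue of mouse embryos, as 6 of 19938 genes measured on 24 Affymetrix mouse Gene ST arrays. They were chosen by name as a ligand and receptor family, and with their changes between mutant and control arrays already known, so those changes are given as a description with no test. Embryos of 19 to 21 somite pairs (E9.5) gave all of the tissue, which comprised the distal pharyngeal arches without the heart tube. There were 3 experiments, each with 4 arrays of mutants and 4 of controls. *Tbx1 LOF* embryos were *Mef2c-AHF-Cre/+;Tbx1* f/- or *Mef2c-AHF-Cre/+;Tbx1* f/f, where f is a floxed allele that Cre deletes. *β-cat LOF* embryos were *Mef2c-AHF-Cre/+;β-catenin* f/f. Rescue embryos had the *Tbx1 LOF* genotype plus a single floxed allele of *β-catenin*. Controls carried no Cre according to the methods (*Tbx1* f/+, *β-catenin* f/+, and *Tbx1* f/+;*β-catenin* f/+), whereas the labels of every array name wild type and Cre-carrying heterozygous littermates, and these sources were not reconciled. *Mef2c-AHF-Cre* acts in AHF mesoderm and its derivatives. Other cells of the dissected tissue therefore kept their floxed alleles, although f/- embryos lacked the other *Tbx1* allele in every cell. Embryos were pooled for each array, and the sources used here do not say which of the *Tbx1* genotypes an array holds.

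Neuregulins are growth factors with an EGF-like domain, made mostly as membrane-bound precursors that proteases release. They bind ErbB3 or ErbB4, and the bound receptor pairs with another ErbB protein, most often ErbB2, which has no known ligand of its own. ErbB3 has little kinase activity and signals through its partner. In the embryonic heart, neuregulin 1 from the endocardium acts on ErbB2 and ErbB4 of the heart muscle to drive trabeculation, while ErbB3 is needed in neural crest cells, their glial descendants and the cushion mesenchyme.

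The values are log2 intensities, on which a difference of 1 is a doubling. Each of the 6 genes was read by 1 probe set with a single gene symbol, and a further probe set shared by *Erbb2* and another gene was left out. Levels of different genes are not comparable on these arrays. *Tbx1* itself lay at 10.98 to 11.43 in *Tbx1 LOF* and 11.77 to 11.99 in its controls (log2 fold change −0.64, SE 0.09; adjusted p = 0.00626 in limma, not passed with the replicate block, with each experiment fitted alone or without *Tbx1 LOF* replicate 1, where 0 genes passed), and at 11.39 to 11.51 in rescue against 11.58 to 11.95 (−0.31, SE 0.09; adjusted p = 1). *Ctnnb1*, the gene of β-catenin, stood at −0.03 (SE 0.06) in *β-cat LOF* and −0.05 (SE 0.06) in rescue. How much of its probe set lies in the deleted exons was not settled, so it does not check those labels. Of 9 listed AHF progenitor markers, 8 were measured and each had a mean above 6. All 15 cardiomyocyte markers listed were measured too, also with means above 6, and control replicate 2 of the *β-cat LOF* experiment stood apart in them. The mean of that list, relative to its average over the 24 arrays, was 2.26 in that array and at most 0.89 in any other.

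*Nrg1*, the main cardiac neuregulin, had lower values wherever *Tbx1* had been deleted. In *Tbx1 LOF* its log2 values were 8.86, 8.93, 8.80 and 8.98, against 9.31, 9.20, 9.30 and 9.34 in the controls. The highest mutant was thus below the lowest control, and limma put the difference at −0.40 on the log2 scale (SE 0.07, 4 arrays in each group), which is 0.760-fold (95% confidence interval 0.688 to 0.839). In rescue the values were 9.03, 9.06, 8.94 and 8.95, against 9.19, 9.21, 9.31 and 9.10 in the controls. The rescue arrays again lay below all of their controls, with a log2 fold change of −0.21 (SE 0.07), or 0.866-fold (0.785 to 0.956). In *β-cat LOF* the values were 8.87, 9.25, 9.23 and 9.06, against 8.98, 9.01, 8.97 and 9.11. These groups overlapped, and the log2 fold change was 0.09 (SE 0.07). From replicates 1 and 2 alone the *Nrg1* difference came to −0.36 in *Tbx1 LOF* and −0.16 in rescue, and from the remaining 2 to −0.43 and −0.25. It stayed between −0.42 and −0.36 in *Tbx1 LOF*, and between −0.24 and −0.17 in rescue, when single arrays were left out. Whether the change in rescue was smaller than that in *Tbx1 LOF* was not tested, since the genes were chosen with both changes known.

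The other neuregulins showed small differences. *Nrg2*, a ligand best known from neurons, ranged from 7.97 to 8.24 in *Tbx1 LOF* and 8.08 to 8.38 in its controls, a log2 fold change of −0.06 (SE 0.08, n = 4 per group). It stood at 0.10 (SE 0.08) in *β-cat LOF* and −0.06 (SE 0.08) in rescue. *Nrg3*, which binds ErbB4 and is also mainly neural, ranged from 6.25 to 6.52 in *Tbx1 LOF* and 6.43 to 6.51 in its controls, at −0.10 (SE 0.07). It was at 0.05 (SE 0.07) in *β-cat LOF* and −0.04 (SE 0.07) in rescue. Mutant and control arrays of *Nrg2* and *Nrg3* overlapped in all 3 experiments. The 95% confidence intervals of their fold changes lay between 0.851 and 1.20 and all included no change. In *Tbx1 LOF* both ligands gave opposite signs in replicates 1 and 2 (−0.25 for *Nrg2*, −0.23 for *Nrg3*) and in replicates 3 and 4 (0.12 and 0.04).

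**Figure D1:**
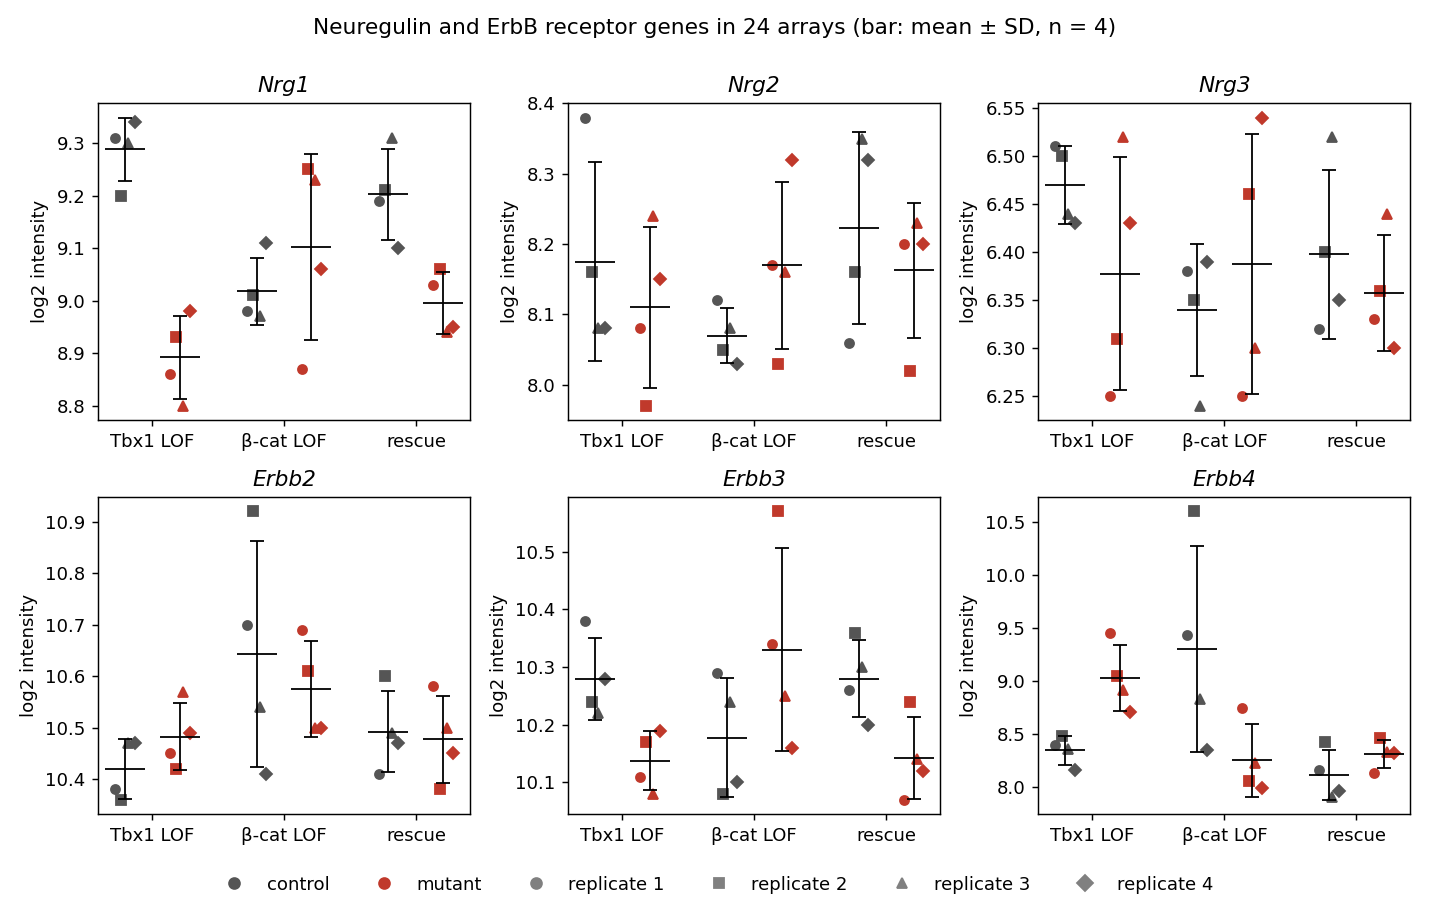
Log2 intensity (y axis) of the 3 neuregulin and 3 ErbB receptor genes in the 24 arrays, by experiment (x axis), with controls in grey, mutants in red, marker shape for the replicate number and bars for the mean ± SD of 4 arrays. *Nrg1* lies lower in all mutant arrays of *Tbx1 LOF* and rescue, and *Erbb4* higher in all *Tbx1 LOF* mutants, while control replicate 2 of the *β-cat LOF* experiment reads 10.60 for *Erbb4*.

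Among the receptors, *Erbb4*, the neuregulin receptor of heart muscle, had the widest range. In *Tbx1 LOF* its values were 9.45, 9.05, 8.92 and 8.71, against 8.40, 8.48, 8.36 and 8.16 in the controls. All mutant arrays lay above all controls, by 0.69 on average on the log2 scale (SE 0.29), which is 1.61-fold (95% confidence interval 1.06 to 2.44). In *β-cat LOF* the values were 8.75, 8.06, 8.23 and 7.99, against 9.44, 10.60, 8.83 and 8.35 in the controls. Every mutant array was below the control mean of 9.30, but 1 mutant array lay above the lowest control, and the log2 fold change was −1.05 (SE 0.29), or 0.484-fold (0.319 to 0.732). That SE and interval rest on a spread pooled over the 6 groups. The SD here was 0.34 in mutants and 0.97 in controls, against 0.14 to 0.31 in the other experiments. The interval is therefore likely too narrow for *β-cat LOF*. The same SE of 0.29 also does not reflect the smaller SDs of the *Tbx1* and rescue experiments. Without control replicate 2 the log2 fold change was −0.62, and with array weights it was −0.61. Replicates 1 and 2 gave −1.62, and replicates 3 and 4 gave −0.48. In rescue the values were 8.14, 8.47, 8.33 and 8.32, against 8.16, 8.43, 7.91 and 7.97, groups that overlapped, with a log2 fold change of 0.20 (SE 0.29). Here replicates 1 and 2 gave 0.01, and the remaining replicates 0.38.

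*Erbb3*, the receptor of neural crest and glia, had slightly lower values in *Tbx1 LOF*. Its values were 10.11, 10.17, 10.08 and 10.19, against 10.38, 10.24, 10.22 and 10.28 in the controls, so that the groups did not overlap, at a log2 fold change of −0.14 (SE 0.07, n = 4 per group). In rescue it read 10.07, 10.24, 10.14 and 10.12, against 10.26, 10.36, 10.30 and 10.20. Here 1 rescue array lay above the lowest control, and the fold change was also −0.14 (SE 0.07). In *β-cat LOF* the values were 10.34, 10.57, 10.25 and 10.16, against 10.29, 10.08, 10.24 and 10.10, groups that overlapped, with a log2 fold change of 0.15 (SE 0.07). The first 2 replicates gave 0.27 and the last 2 gave 0.03. *Erbb2*, the shared partner receptor, ranged from 10.42 to 10.57 in *Tbx1 LOF* and 10.36 to 10.47 in its controls, a difference of 0.06 (SE 0.08). It was at −0.07 (SE 0.08) in *β-cat LOF* and −0.02 (SE 0.08) in rescue, and the groups overlapped in all 3 experiments. Its highest value, 10.92, was again in control replicate 2 of the *β-cat LOF* experiment.

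**Figure D2:**
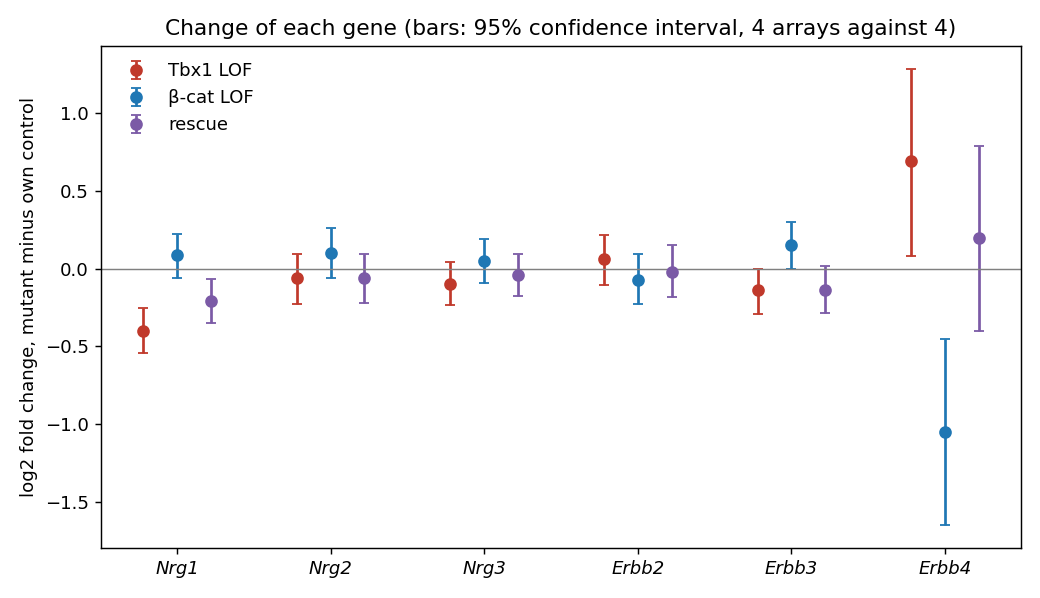
Log2 fold change of mutant minus own control (y axis) for each gene (x axis) in the 3 experiments, with 95% confidence intervals from limma. The intervals rest on a spread pooled over the 6 groups. *Nrg1* was at −0.40 in *Tbx1 LOF* and −0.21 in rescue, and the wide intervals of *Erbb4* surround 0.69, −1.05 and 0.20.

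Over the family, 4 of 6 genes had a negative fold change in *Tbx1 LOF*, 2 in *β-cat LOF* and 5 in rescue. The medians were −0.08, 0.07 and −0.05, beside −0.01, 0.01 and −0.02 over all genes. In limma 1 of the 6 passed an adjusted p of 0.05 in *Tbx1 LOF*, where 0.0301% of all genes did, and none in *β-cat LOF* or rescue, where 0% of all genes did. The gene that passed was *Nrg1*. It no longer did with the replicate block, which allows for a pairing of same-numbered arrays and left 0 genes called in *Tbx1 LOF*. It also failed with each experiment fitted alone, with array weights, or after a further quantile normalization. Nor did it pass without *Tbx1 LOF* replicate 1 or 3 or without *Tbx1* control replicate 1, 3 or 4. In *β-cat LOF* *Erbb4* passed without control replicate 4. At an unadjusted p under 0.05 the counts were 2, 2 and 1 of 6, beside 4.12%, 5.72% and 1.27% of all genes. At an unadjusted p under 0.05 with a fold change over 1.5, 1 of 6 passed in *Tbx1 LOF*, 1 of 6 with *β-catenin* deleted (*Erbb4* each time) and 0 of 6 in rescue, beside 0.326%, 0.451% and 0.01% of all genes. Mutant arrays lay wholly above the controls for 1 of 6 genes in *Tbx1 LOF* (1.32% of all genes) and wholly below for 2 (0.973%). In *β-cat LOF* this held for none either way (2.06% and 0.787%), and in rescue for 1 below (2.24%) and none above (0.737%). Since the genes were chosen with these comparisons known, nothing is read from the counts.

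The order of the 6 groups was set out for each gene, although groups of different experiments also differ in their crosses. By the methods *Tbx1* f/f mice were in Swiss Webster, and *β-catenin* f/f mice in a mixed background. The paper also describes marked batch effects, most of all in the *β-cat LOF* and *Tbx1 LOF* data. Cross, strain background and batch cannot be told apart from genotype in this order. For *Nrg1* it ran from *Tbx1* controls (mean 9.29 ± 0.06, SD, n = 4) over rescue controls (9.20 ± 0.08), *β-cat LOF* (9.10 ± 0.18), *β-cat LOF* controls (9.02 ± 0.07) and rescue (9.00 ± 0.06) to *Tbx1 LOF* (8.89 ± 0.08). Each group overlapped its neighbour in this order. For *Erbb4* the *β-cat LOF* controls (9.30 ± 0.97) and *Tbx1 LOF* (9.03 ± 0.31) came first and overlapped. A gap of 0.69 without overlap separated *Tbx1 LOF* from the *Tbx1* controls (8.35 ± 0.14), which were followed by rescue (8.31 ± 0.14), *β-cat LOF* (8.26 ± 0.34) and rescue controls (8.12 ± 0.23), each overlapping the next. *Erbb3* was highest in *β-cat LOF* (10.33 ± 0.18) and lowest in *Tbx1 LOF* (10.14 ± 0.05) and rescue (10.14 ± 0.07). Neighbouring groups overlapped throughout for *Nrg2*, *Nrg3*, *Erbb2* and *Erbb3*, whose group means spanned 8.07 to 8.22, 6.34 to 6.47, 10.42 to 10.64 and 10.14 to 10.33.

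The control groups also differed from each other in level. Their values are a part of the changes known when the genes were chosen, so these differences are given as a description with no test. *Nrg1* was higher by 0.27 (SE 0.07) in *Tbx1* than in *β-cat LOF* controls. *Erbb4* was higher by 1.19 (SE 0.29) in *β-cat LOF* than in rescue controls. In limma 0 of the 6 genes passed an adjusted p of 0.05 between any pair of control groups. At an unadjusted p under 0.05 there were 3 of 6 between *Tbx1* and *β-cat LOF* controls, 0 of 6 between *Tbx1* and rescue controls and 2 of 6 between *β-cat LOF* and rescue controls, beside 13.8%, 7.51% and 14.5% of all genes. At the adjusted threshold the shares of all genes were 0.562%, 0.0251% and 0.0652%. *Nrg1* passed that threshold with array weights or without *β-cat LOF* replicate 1. Without control replicate 4 of the *β-cat LOF* experiment *Nrg1*, *Erbb2* and *Erbb4* passed it, and *Erbb4* was then higher by 1.5 (SE 0.26) in *β-cat LOF* than in rescue controls. Nothing is read from these counts either. Between control groups, cross, strain background and batch cannot be told apart.

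Spread within groups differed between the receptors. The residual SD was 0.456 for *Erbb4*, between 0.0918 and 0.113 for the other 5 genes and 0.112 for the median gene. The deviation of each gene from its group mean was set against that of the mean of 10 marker lists, giving 60 relations over 24 arrays. Of these, 2 passed in permutation tests (two-sided, arrays permuted within groups) after Benjamini-Hochberg adjustment over the 60. The tests treat the arrays of a group as exchangeable, although their batches are not given. A shared batch could make these p-values too small. *Erbb4* deviated with the cardiomyocyte markers, which include *Myh6*, *Tnnt2* and *Nppa* (Pearson r = 0.914, permutation p = 3e-05, adjusted p = 0.0018; Spearman rho = 0.81, permutation p = 8e-05, adjusted p = 0.0048). Without the 2 arrays farthest out, both *β-cat LOF* controls, r was 0.772, and within the *Tbx1*, *β-cat* and rescue experiments it was 0.597, 0.98 and 0.814. *Erbb3* deviated with the neural crest and glial markers, such as *Sox10* and *Tfap2a* (r = 0.701, permutation p = 0.00073, adjusted p = 0.0219; rho = 0.697, permutation p = 0.00118, adjusted p = 0.0354). Without the 2 farthest arrays r was 0.714, and within the 3 experiments it was 0.611, 0.981 and 0.461. The relation of *Erbb4* passed with any single array left out (r from 0.78 to 0.929). That of *Erbb3* (r from 0.62 to 0.763) no longer passed in 5 of 24 such cases, without *Tbx1* control replicate 1, *β-cat LOF* replicates 2, 3 or 4, or rescue replicate 1. When deviations were taken within replicates 1 and 2 and within 3 and 4 of each group, r was 0.873 and 0.709 and neither passed.

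**Figure D3:**
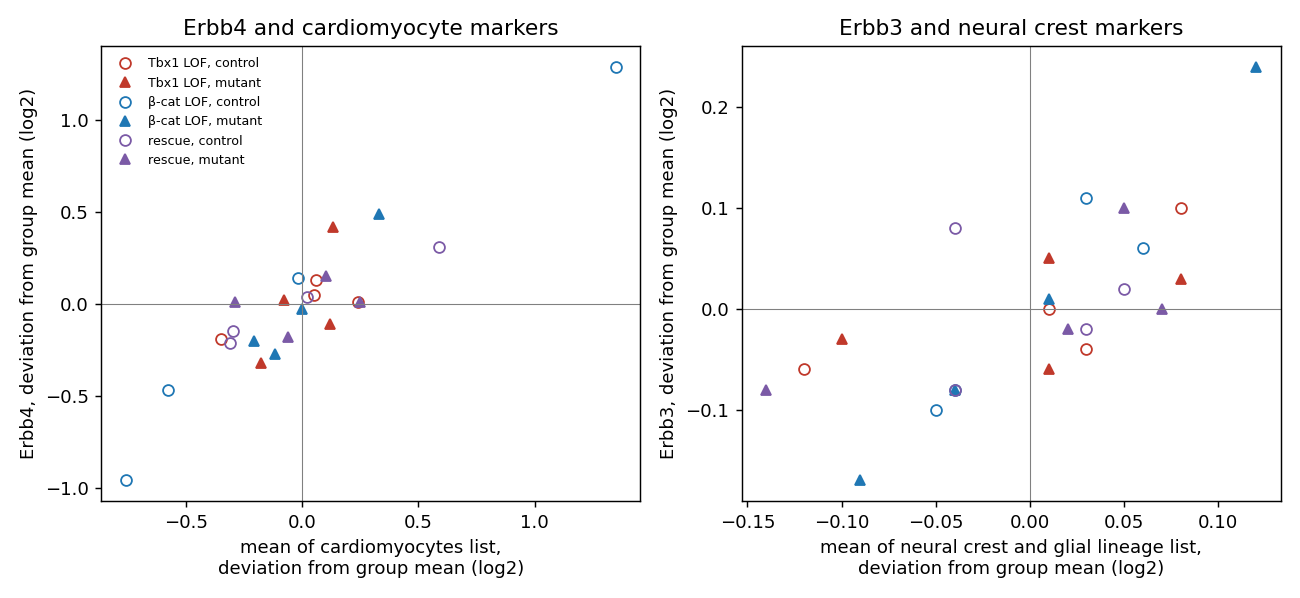
Deviation of *Erbb4* from its group mean (left, y axis, log2) against that of the cardiomyocyte marker mean (x axis), and of *Erbb3* against the neural crest marker mean (right), in 24 arrays coloured by experiment, open for controls and filled for mutants. *Erbb4* rises with the cardiomyocyte markers over all arrays (r = 0.914), with control replicate 2 of *β-cat LOF* at the upper end, and *Erbb3* with the neural crest markers (r = 0.701).

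Other relations did not pass. *Erbb2* had r = 0.723 with the cardiomyocyte markers (permutation p = 0.0168, adjusted p = 0.253; rho = 0.405, permutation p = 0.111, adjusted p = 0.722), which fell to 0.348 without the 2 farthest arrays and so rested on them. *Erbb4* had r = 0.64 with endothelial and endocardial markers (permutation p = 0.00606, adjusted p = 0.121; rho = 0.599, permutation p = 0.00613, adjusted p = 0.123), and 0.542 without the 2 farthest arrays. Its r with the liver and gut markers was 0.639 (permutation p = 0.0255, adjusted p = 0.306; rho = 0.316, permutation p = 0.202, adjusted p = 0.722), and 0.492 without the 2 farthest. *Nrg1* had its highest r, 0.408, with the AHF progenitor markers (permutation p = 0.128, adjusted p = 0.62; rho = 0.327, permutation p = 0.186, adjusted p = 0.722), and 0.231 without the 2 farthest. *Nrg2* had r = 0.323 with the neural tube progenitor markers (permutation p = 0.21, adjusted p = 0.7). Its rho was 0.566 (permutation p = 0.0206, adjusted p = 0.308), and r was 0.792 without the 2 farthest. For *Erbb3* with the pharyngeal endoderm markers r was 0.468 (permutation p = 0.0426, adjusted p = 0.426), and 0.495 without the 2 farthest.

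**Figure D4:**
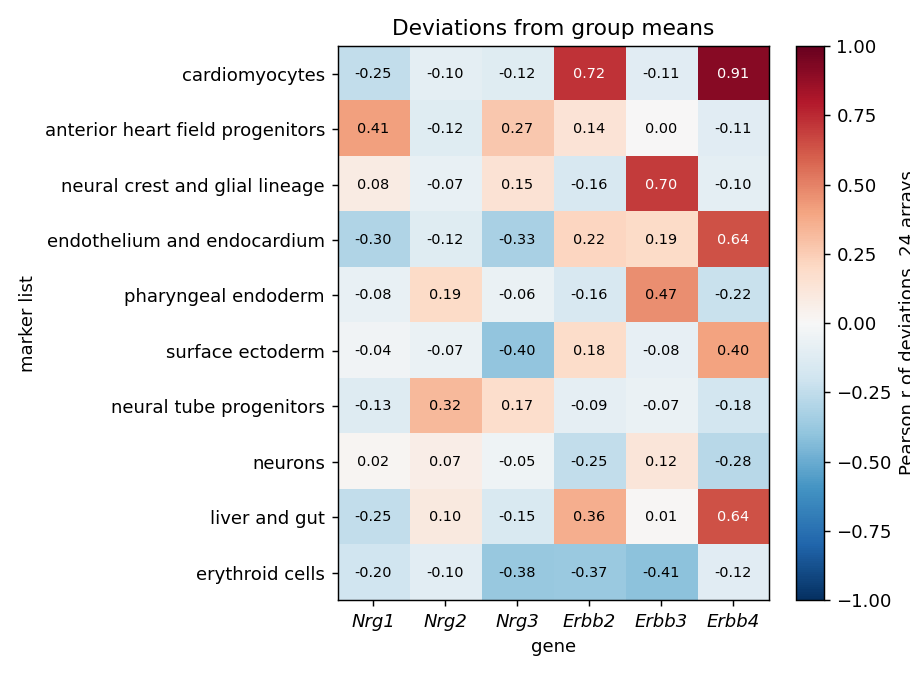
Pearson r between the deviation from the group mean of each gene (x axis) and of each marker list mean (y axis) over 24 arrays, red above and blue below 0. The 2 relations that passed adjustment are *Erbb4* with cardiomyocytes (0.914) and *Erbb3* with neural crest and glial lineage (0.701).

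The cardiomyocyte markers had the sign of *Erbb4* between genotypes too. In *Tbx1 LOF* all 15 had positive fold changes, of which 0 passed an adjusted p of 0.05 in limma while 11 were below 0.05 unadjusted, and the list mean ran from 10.70 to 11.01 in mutants and 9.77 to 10.35 in controls. In *β-cat LOF* all 15 were negative, with 0 passing and 14 at an unadjusted p under 0.05, and the list mean was 9.99 to 10.53 in mutants against 10.59 to 12.70. In rescue 13 were positive, with 0 at an unadjusted p under 0.05, and the ranges were 9.91 to 10.44 and 9.60 to 10.50. With the list mean as a covariate of the fit, chosen after seeing the data, the log2 fold change of *Erbb4* was 0.00 (SE 0.14) in *Tbx1 LOF*, −0.01 (SE 0.16) in *β-cat LOF* and −0.06 (SE 0.13) in rescue. That of *Nrg1* with the same covariate was −0.36 (SE 0.08) in *Tbx1 LOF* and −0.19 (SE 0.07) in rescue. In these bulk samples fewer cells of a type and less RNA per cell cannot be told apart, and the part of cardiomyocyte content in the change of *Erbb4* was not tested beyond these values. Endothelial and endocardial markers also shared the sign of *Erbb4* in *β-cat LOF*, where 9 of 10 were negative, with 0 passing in limma and 6 below 0.05 unadjusted, and a list mean of 10.29 to 10.44 in mutants against 10.43 to 10.69. Their median was 0.02 in *Tbx1 LOF* and 0.02 in rescue, with 0 below 0.05 unadjusted in each. In *Tbx1 LOF* all 9 liver and gut markers were positive, with 0 passing and 4 below 0.05 unadjusted, and a list mean of 7.74 to 8.50 against 7.47 to 8.05. In *β-cat LOF* 8 of these 9 were negative (median −0.18), with 0 passing and 1 below 0.05 unadjusted in each direction, and a list mean of 7.41 to 7.75 against 7.40 to 8.41. In rescue 4 were positive and 5 negative, with 0 below 0.05 unadjusted, and a list mean of 7.34 to 7.71 against 7.36 to 7.63. The part of these cells in the result was not tested.

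Neural crest markers mostly had the sign of *Erbb3* in *Tbx1 LOF* and *β-cat LOF*, but their list means overlapped between mutants and controls in both. Of 8 measured out of 10 listed, 7 had negative fold changes in *Tbx1 LOF*, with 0 passing in limma and 2 at an unadjusted p under 0.05, and a list mean of 9.74 to 9.92 in mutants and 9.86 to 10.05 in controls. In *β-cat LOF* 7 of 8 were positive, with 0 passing and 1 at an unadjusted p under 0.05 (9.80 to 10.01 against 9.78 to 9.89). With the mean of these markers as a covariate, also chosen after seeing the data, *Erbb3* stood at −0.02 (SE 0.07) in *Tbx1 LOF*, 0.10 (SE 0.06) in *β-cat LOF* and −0.14 (SE 0.06) in rescue. In rescue 5 of 8 neural crest markers were negative, with a median of −0.01 and 0 at an unadjusted p under 0.05. *Erbb3* in rescue therefore had the same value with and without the covariate.

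Genes whose pattern was most like that of each family member were found by the Pearson r over the 24 arrays, with each value taken relative to the mean of its experiment. They were picked as the highest r of all other genes, so no p is given, and the arrays share experiment, processing and genotype. For *Nrg1* they were the calcium pump gene *Atp2a3* (r = 0.867, rho = 0.824), *Tbx1* itself (r = 0.842, rho = 0.85), *Usp53* (0.838), the proprotein convertase gene *Pcsk6* (0.828) and *Atrip* (0.82). The r between *Nrg1* and *Tbx1* was 0.429 when deviations from the group means were used instead. For *Erbb4* all 5 were above 0.97, and 3 of them belong to the heart muscle cell: *Mybpc3*, cardiac myosin-binding protein C (r = 0.975, rho = 0.97), *Slc8a1*, the sodium-calcium exchanger (0.972), and *Ryr2*, the cardiac calcium release channel (0.971). *Mical2* (0.977) and the sodium pump subunit gene *Atp1b1* (0.976) were the others. Without control replicate 2 of the *β-cat LOF* experiment these 5 lay between 0.948 and 0.955. For *Erbb3* they were *Plcg2* (0.851), *Phactr1*, *Slc12a2*, *Ankrd6* and *Disp1* (0.801), and for *Erbb2* *Piezo1* (0.832), *Bmp7*, *Adcy6*, *Arhgap23* and *Speg* (0.817). The r of *Erbb2* with these 5 dropped to between 0.679 and 0.748 without that control array. *Nrg2* was closest to *Myt1l* (0.876) and *Gapt*, *Stk31*, *Trpm5* and *Olfr1178*, and *Nrg3* to *Dnmt3l* (0.889) and *Lbx2*, *Grm2*, *Tnp2* and *Cela1*. From deviations from the group means, r was 0.858 for *Nrg2* with *Myt1l* and 0.905 for *Nrg3* with *Dnmt3l*. Whether the likenesses of *Nrg2* and *Nrg3* come from shared background signal was not tested.

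**Figure D5:**
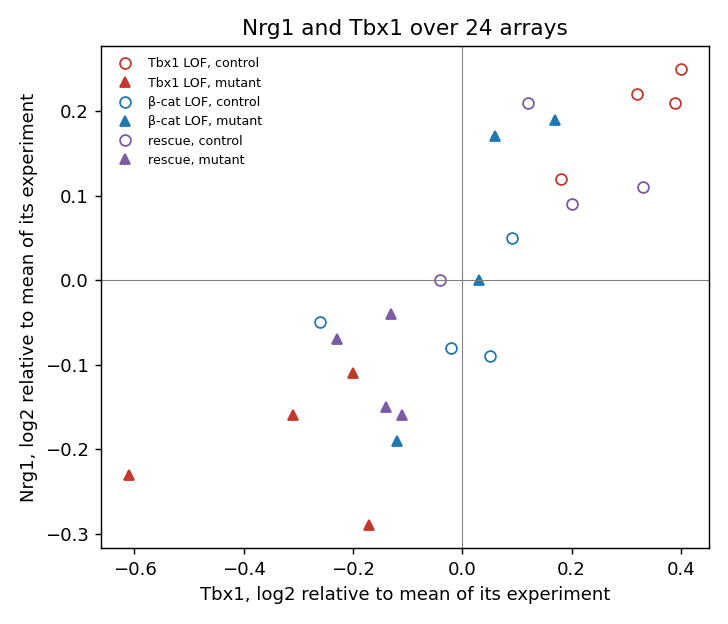
*Nrg1* (y axis) against *Tbx1* (x axis), each as log2 intensity relative to the mean of the 8 arrays of its experiment, in 24 arrays coloured by experiment, open for controls and filled for mutants. Mutants of *Tbx1 LOF* and rescue lie at the lower left, and r over all arrays is 0.842.

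The rest of the ErbB pathway was examined through 53 other genes, of which 47 were measured. In limma 0 of 47 passed an adjusted p of 0.05 in *Tbx1 LOF*, *β-cat LOF* or rescue. At an unadjusted p under 0.05 there were 2, 3 and 1 (4.26%, 6.38% and 2.13% of the 47, beside 4.12%, 5.72% and 1.27% of all genes), and the medians were −0.02, 0.03 and −0.01. In the list of other ErbB ligands with *Egfr*, the EGF receptor, of which 8 genes were measured, *Tgfa*, a ligand of that receptor, stood at 0.24 (SE 0.07; limma, adjusted p = 0.593) in *β-cat LOF* and −0.18 (SE 0.07; limma, adjusted p = 1) in rescue. *Egfr* was at −0.08 (SE 0.07) in *Tbx1 LOF*, and *Epgn*, the gene of the ligand epigen, at 0.11 (SE 0.08) there and −0.11 (SE 0.08) in rescue. Of 6 genes of ligand shedding, the largest changes were those of *Adam19*, a metalloprotease, at 0.16 (SE 0.11) in *Tbx1 LOF*, and of *Rhbdf1*, which acts in the traffic of the sheddase ADAM17, at 0.14 (SE 0.05; limma, adjusted p = 0.8) in *β-cat LOF*.

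Inhibitors of the receptors gave the largest value in the pathway. *Lrig1*, a transmembrane protein that lowers ErbB levels, was at −0.36 (SE 0.13; limma, adjusted p = 0.811) in *Tbx1 LOF*, and its relative *Lrig3* at −0.25 (SE 0.08; limma, adjusted p = 0.669). Neither passed. The feedback inhibitor gene *Errfi1* was at −0.08 (SE 0.07) in *Tbx1 LOF* and −0.08 (SE 0.07) in rescue. Among 12 measured adaptors and kinases, fold changes ran from −0.12 to 0.13 over the 3 comparisons, with the adaptor gene *Grb2* at 0.13 (SE 0.06; limma, adjusted p = 0.854) in *β-cat LOF* and −0.12 (SE 0.06; adjusted p = 1) in rescue. The 12 early response and feedback genes ran from −0.18 to 0.18. *Spry2*, an inhibitor of receptor tyrosine kinase signalling, was at −0.18 (SE 0.10) in *Tbx1 LOF*, 0.18 (SE 0.10) in *β-cat LOF* and −0.14 (SE 0.10) in rescue. *Spred1*, an inhibitor of the Ras pathway, was at −0.15 (SE 0.07) in *Tbx1 LOF*, and *Egr1*, an early response transcription factor, at 0.16 (SE 0.08) in rescue. Of these 12 genes 10 were negative in *Tbx1 LOF*, 9 positive in *β-cat LOF* and 8 negative in rescue, with 0 below 0.05 unadjusted in each (limma). Their medians were −0.04, 0.06 and −0.05, beside −0.01, 0.01 and −0.02 over all genes. The share of all genes with each sign was not computed, so nothing is read from these signs.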

How the data were processed

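The deposited values are log2 intensities, which the authors made by RMA in the oligo package (background correction, quantile normalization, gene-level summarization). The sources used here give neither versions nor the genome build, nor the batch of each array or whether the ComBat correction of the methods is in the values, so blocking for batch was not repeated. RNA (100 ng per array) was amplified before hybridization. Of 35556 probe sets, 21789 with 1 gene symbol were kept and averaged into 19938 genes, while 1621 naming several genes and 12146 naming no gene were dropped. Array medians were 8.00 to 8.14. The number of arrays limits the precision. All 24 arrays entered 1 fit of 6 group means in limma 3.58.1 (R 4.3.3), tested on simulated data, with Benjamini-Hochberg adjustment over all genes. Whether arrays of a group are separate pools is not fully stated, so p-values measure the spread between arrays. Permutation tests used 100000 resamples. Plots used matplotlib 3.10.9 in Python 3.11.15.

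The 6 genes and all lists were chosen with earlier results of these data known. Named are the 6 genes, *Tbx1* and *Ctnnb1*, the 5 genes most like each, and, of the pathway lists, those at an adjusted p under 0.05 or with up to 3 of the largest changes. Markers are named by the same rule or as examples chosen after their values were seen. Deviations of same-numbered mutant and control arrays had r of 0.157 to 0.494 in the *Tbx1* experiment. In the *β-cat* and rescue experiments r was 0.0889 to 0.479 and −0.0638 to 0.256. The same-numbered control was the best match of a mutant array in 1, 2 and 1 of 4 cases in these experiments. Whether arrays are paired by number is therefore not settled. Alternatives were fits per experiment, with a replicate block, with replicates 1 and 2 against 3 and 4 as a block, with trend and robust variance, with array weights, without genes of a mean under 6, after a further quantile normalization, with the probe set of highest mean, and without each array.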

Additional observations from a re-analysis of the deposited data

Results flagged for a closer look

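The difference of *Erbb4* from controls had opposite signs between genotypes, with every *Tbx1 LOF* array above its control mean (log2 fold change 0.69) and every *β-cat LOF* array below its own (−1.05). From the same series, the paper lists *Erbb4* as raised in *Tbx1 LOF*, changed the opposite way in *β-cat LOF* and normalized in rescue. The signs given here are therefore not independent of that report. Every rescue array was likewise above its control mean (0.20, SE 0.29), opposite to *β-cat LOF* (−1.05). The lowest rescue array, 8.14, lay close to the control mean of 8.12, the groups overlapped, and replicates 1 and 2 gave 0.01. The control mean of *β-cat LOF*, 9.30, includes replicate 2 at 10.60. The differences of *Erbb4* between genotypes were not tested. *Nrg2* in rescue had 1 array apart from the others, replicate 2 at 8.02 against 8.20 to 8.23, a gap of 0.835 of the range of the group. Chance gives about 1 such array in 20 groups, and 36 groups were examined.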

How the results depend on the processing

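The log2 fold changes of the 6 genes moved by less than their residual SD under all settings fixed for them, single arrays left out included. Exceptions were covariates added later: with the cardiomyocyte mean *Erbb4* reached 0 in *Tbx1 LOF* (a sign change within rounding) and −0.01 in *β-cat LOF*, and *Erbb2* −0.08 and 0.13, and with the neural crest mean *Erbb3* reached −0.02 in *Tbx1 LOF*. For *Erbb4* the residual SD is wide, at 0.456. Its log2 fold change in *β-cat LOF* went from −1.05 to −0.61 with array weights, and ran from −1.37 to −0.62 with single arrays left out. The count of 0 pathway genes was the same in every setting run.

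Over all genes the 6 calls of *Tbx1 LOF* became 0 with each experiment fitted alone, 0 with the replicate block (9 residual degrees of freedom in place of 18), 10 with replicates 1 and 2 against 3 and 4 as a block, and 65 at an unadjusted p under 0.05 with a fold change over 1.5. They ran from 0 to 32 with single arrays left out (0 without mutant replicate 1, 32 without mutant replicate 2, 2 without control replicate 1, and 1 without control replicate 3 or 4). The 0 calls of *β-cat LOF* became 2 with the replicate block, 1 after a further quantile normalization and 90 at the unadjusted threshold, and ran from 0 to 42 (1 without control replicate 3, 42 without control replicate 4). In rescue 0 became 1 with array weights and 2 at the unadjusted threshold. The 0 genes of the family that differed between control groups became 1 with array weights and ran from 0 to 3. The 2 relations with marker lists became 0 when deviations were taken within replicates 1 and 2 and within 3 and 4, and ran from 1 to 3. The causes were not tested.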

Other observations

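The marker lists not yet described were compared between genotypes in limma in the same way. *Tbx1*, counted in the AHF progenitor list, was the only gene of the 10 marker lists to pass an adjusted p of 0.05, in *Tbx1 LOF*. The median of that list was −0.01 there, 0.01 in *β-cat LOF* and −0.04 in rescue. In *Tbx1 LOF* it covered 4 negative markers, with *Fgf10* at −0.39 (SE 0.11), and 4 positive, with *Nkx2-5* at 0.27 (SE 0.16). Below 0.05 unadjusted were 3 of the negative and 1 of the positive markers. In rescue 6 of 8 were negative, with *Fgf10* at −0.47 (SE 0.11). The list mean, which includes *Tbx1*, was 10.50 to 10.57 in rescue against 10.59 to 10.79 in its controls. Neural tube progenitor markers were all negative in *Tbx1 LOF* (9 of 9, median −0.18) and all positive in *β-cat LOF* (median 0.26). Below 0.05 unadjusted were 2 and 6 of the 9, beside 4.12% and 5.72% of all genes. Their list mean was 8.35 to 9.19 in *Tbx1 LOF* against 8.79 to 9.15 in its controls. In *β-cat LOF* it was 8.59 to 8.80 against 8.32 to 8.43, without overlap. In rescue 8 of 9 were positive (median 0.19), with 0 below 0.05 unadjusted. The part of these cells in the changes of the 6 genes was not tested. Neuronal markers had medians of −0.14, 0.12 and 0.16 in *Tbx1 LOF*, *β-cat LOF* and rescue, with 0 of 11 below 0.05 unadjusted in each. Pharyngeal endoderm markers had medians of −0.01, 0.06 and −0.05, surface ectoderm markers 0.02, 0.03 and −0.01, and erythroid markers 0.08, 0.00 and 0.01 (listed in the same order).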
